A study of Mus musculus with 5 samples.

Results

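The Notch ligands Dll1, Dll4 and Jag1, the receptors Notch1, Notch2 and Notch3, and the target genes Hes1, Hes5, Hey1 and Heyl were followed through the cells of 5 mouse synovial sarcomas. These 10 genes were chosen by symbol from the 32286 features of the deposited count matrices, and all 10 were present. Each tumor arose in a mouse that expresses human SS18::SSX2, the chimeric oncoprotein of synovial sarcoma, in the hSS2 background. In this model the fusion is switched on from Rosa26 by Cre, delivered as TATCre protein into a limb at 8 days of age, so any limb cell that took up Cre may have been the founder. The tumors were taken at morbidity, dissociated and profiled by droplet single-cell RNA sequencing, in which each captured molecule is counted once by its unique molecular identifier (UMI). Nearby tissue was kept for histology, which gave each tumor its label. There were 2 biphasic tumors (BP 1 and BP 2, with gland-like and spindle areas), 1 monophasic (MP, spindle cells), 1 labeled MP+BP and 1 labeled PD+MP, where PD is poorly differentiated. All 5 tumors carry the fusion and none was untreated, and the sources do not give the sex of the mouse behind each tumor or the number of mice behind the 5 tumors. The names of BP 1 and BP 2 share their leading number and may mark 1 animal, which the sources do not say, so that p-values measure the spread between these tumors.

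In Notch signaling, a ligand on one cell binds a receptor on its neighbor. The receptor is then cut by proteases, and its intracellular part enters the nucleus and joins RBPJ, a DNA-binding factor, to switch on repressor genes of the Hes and Hey families. In vessels, endothelial cells present Dll4 and Jag1, and the mural cells around them, pericytes and smooth muscle, carry Notch3. In the embryonic nervous system Hes1 and Hes5 hold progenitors back from becoming neurons, by repressing proneural genes.

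Of 51670 called cells, 39559 passed filters on genes detected, mitochondrial share and doublets, 6328 to 9486 a tumor. Clusters were named from marker genes that hold no Notch gene. They gave 27032 SyS-like (tumor), 1245 pericyte-like (mural), 2284 endothelial-like and 3686 macrophage-like cells. The 15 synovial sarcoma markers summed to 4370 to 5747 CPM (counts of a gene per 1e6 counts of the class) in SyS-like cells and to 151.9 to 514 CPM in the other 3 classes. EGFP, a feature in the deposited gene list, lay between 31.5 and 42.5 CPM in the tumor cells of each tumor and at no more than 2.31 CPM in the other 3 classes. Pericyte-like sums held pericyte markers at 17550 to 23640 CPM, and endothelial-like sums held them at 501.5 to 716.2 CPM, whose part in the values below was not tested. PD+MP gave only 74 endothelial-like and 38 pericyte-like cells. Barcodes found in more than 1 library numbered 231, on 351 kept cells. Clusters that showed SyS markers at 27.1% to 30.7% of the UMI count typical of their tumors stayed unnamed and out of every value below. A shallow cluster at 34.95%, with a median of 2732 UMIs, lay past the cutoff and was kept as SyS-like. It gave 1863 of the 6426 SyS-like cells of PD+MP, and its part in the PD+MP values was not tested. Levels in CPM are taken per tumor and class. They are not compared between genes, since gene length and mapping were not modeled. Differences are log2 fold changes from edgeR's quasi-likelihood test over 15 sums, 5 tumors by 3 classes, with the tumor as a block and p adjusted over all genes tested (Benjamini-Hochberg). Values after ± are SD over the 5 tumors unless SE is named.

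**Figure D1:**
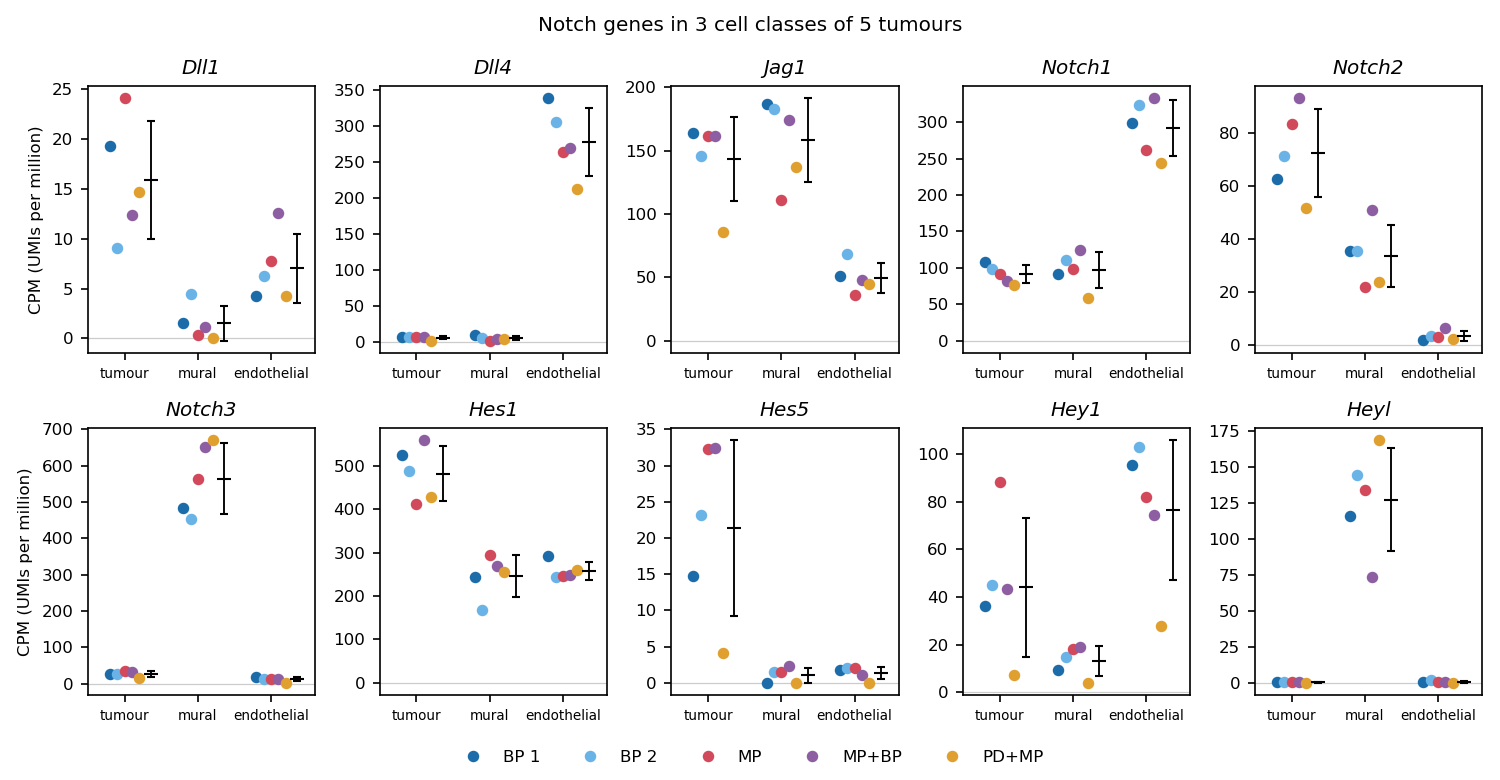
Level of each of the 10 genes in CPM (linear axis, 1 panel a gene) in SyS-like (tumour), pericyte-like (mural) and endothelial-like sums, with 1 point for each of the 5 tumors and a bar for the mean ± SD. Dll4 points of the endothelial-like class and Notch3 and Heyl points of the pericyte-like class sit above all other points of those genes, and Hes5 points sit highest in the SyS-like class.

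The first question was which cells of the tumor hold transcripts of the ligands. Dll4, the ligand of sprouting vessels (chr2:119325784-119335962, plus strand, in the GRCm38 annotation), lay at 339, 306, 265, 269 and 212 CPM in endothelial-like cells of BP 1, BP 2, MP, MP+BP and PD+MP, the order used for all lists of 5 values. In tumor cells Dll4 lay at 6.97, 6.88, 5.79, 6.12 and 1.21 CPM, and in pericyte-like cells at 9.39, 4.43, 1.46, 3.55 and 3.92 CPM. Endothelial-like levels did not overlap the others in any tumor. The log2 difference of tumor against endothelial-like cells was -6.13 (SE 0.31, adjusted p = 1.9e-09), and between tumor and mural cells it was 0.08 (SE 0.47, adjusted p = 0.91), within the spread.

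Jag1, a ligand used in vessel walls and many epithelia (chr2:137081456-137116644, minus strand), was present throughout the tumor. Its level was 164, 146, 161, 161 and 85.8 CPM in tumor cells, and 187, 183, 111, 174 and 137 CPM in pericyte-like cells. Tumor and mural ranges overlapped. In endothelial-like cells Jag1 was lower, at 50.8, 68.6, 35.9, 48.3 and 45.0 CPM, below the tumor cells of the same tumor each time. The log2 difference was 1.26 for tumor against endothelial-like cells (SE 0.16, adjusted p = 1.4e-05) and -1.69 for endothelial-like against mural cells (SE 0.17, adjusted p = 2.6e-06). Tumor cells differed from mural cells by -0.44 (SE 0.16, adjusted p = 0.037), a call that was lost in 13 of 15 alternative settings.

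Dll1, a ligand best known from somites and neural progenitors (chr17:15367354-15376872, minus strand), was read at low levels. Tumor cells held it at 19.3, 9.05, 24.1, 12.4 and 14.7 CPM, and endothelial-like cells at 4.23, 6.27, 7.73, 12.6 and 4.29 CPM. These ranges overlapped, and MP+BP had about equal levels in both classes. Pericyte-like cells had 2, 3, 1, 1 and 0 UMIs of Dll1 in all. Dll1 was higher in tumor than in mural cells (log2 3.39, SE 0.62, adjusted p = 5.0e-04). It was also higher in endothelial-like than in mural cells (2.55, SE 0.68, adjusted p = 0.0085), which did not hold without MP (adjusted p = 0.070). Tumor against endothelial-like cells missed the threshold (0.84, SE 0.37, adjusted p = 0.070) and passed it in 8 of 14 alternatives.

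Among the receptors, Notch3 (chr17:32120820-32166852, minus strand), whose loss disturbs arterial smooth muscle, lay in the mural cells. Its level there was 482, 453, 562, 652 and 670 CPM. In tumor cells it was 26.9, 26.0, 35.4, 31.3 and 14.8 CPM, below every mural value. The log2 difference was -4.74 (SE 0.25, adjusted p = 4.3e-09). Endothelial-like cells held Notch3 at 18.5, 12.9, 13.0, 13.4 and 2.14 CPM, the last from 1 UMI. Tumor cells stood above them by 0.71 (SE 0.25, adjusted p = 0.024), but this order rested on 1 small cluster. A cluster of 159 cells carried endothelial and pericyte markers together and was left out. Its median was 15790 UMIs, against 4176 in the endothelial-like and 4009 in the pericyte-like cluster. Whether doublets remained in it was not tested. With that cluster kept as endothelial-like the difference was -0.89 (adjusted p = 0.0013). A coarser clustering gave -0.90 (adjusted p = 0.0013), with 2443 endothelial-like cells and no cluster carrying both marker sets, so this was not a separate check. The call was also lost without MP, without MP+BP and with sums thinned to equal depth.

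Notch1 (chr2:26457903-26516663, minus strand), the receptor that restrains sprouting in endothelium, was highest in endothelial-like cells, at 299, 323, 261, 333 and 244 CPM. Tumor cells had 108, 98.7, 92.1, 81.7 and 76.6 CPM, and pericyte-like cells had 91.6, 111, 99.1, 124 and 58.8 CPM. All endothelial-like values lay above all values of the other classes, whose ranges overlapped. Notch1 was lower in tumor than in endothelial-like cells by a log2 difference of -1.97 (SE 0.14, adjusted p = 4.3e-08). The smaller difference from mural cells (-0.40, SE 0.15, adjusted p = 0.038) was lost in 11 of 15 alternatives, and only 3 of 5 tumors showed it.

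Notch2 (chr3:98013527-98150361, plus strand), a receptor of many mesenchymal and blood cells, ran the other way. Tumor cells held it at 62.7, 71.5, 83.4, 93.2 and 51.5 CPM, pericyte-like cells at 35.2, 35.4, 22.0, 50.9 and 23.5 CPM, and endothelial-like cells at 1.56, 3.30, 2.96, 6.31 and 2.14 CPM. The 3 ranges did not overlap, with tumor cells highest and endothelial-like cells lowest. Tumor cells exceeded endothelial-like cells by 4.25 (SE 0.24, adjusted p = 5.1e-09) and mural cells by 0.85 (SE 0.20, adjusted p = 0.0034) on the log2 scale. Macrophage-like cells, not in the fit, averaged 77.7 CPM. Notch1 was thus the receptor with its top level in endothelial-like cells, Notch3 in mural cells and Notch2 in tumor cells among the 3 classes fitted. Reads from Notch1, Notch3, Dll1, Dll4 and Hes5 may include antisense neighbors where the counting did not use strand, which the sources do not state. On the same strand, Mir6996 overlaps Notch1, and Gm42819 and Gm42820 overlap Notch2, and their part was not tested.

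Of the targets, Heyl (chr4:123233556-123249875, plus strand), a transcriptional repressor found in vascular smooth muscle, was a mural transcript. It lay at 116, 145, 134, 73.4 and 169 CPM in pericyte-like cells. It reached at most 0.614 CPM in tumor cells and 1.65 CPM in endothelial-like cells, far below every mural value. The log2 difference of tumor against mural cells was -9.11 (SE 0.41, adjusted p = 8.6e-10), the largest in size among the 10 genes in this comparison. Tumor and endothelial-like cells, both near 0, did not differ past the threshold (-1.57, SE 0.75, adjusted p = 0.087), while with the mixed cluster kept as endothelial-like the difference was -4.98 (adjusted p = 8.8e-07).

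Hey1 (chr3:8663359-8667256, minus strand), a Notch target of arterial endothelium, was highest in endothelial-like cells in 4 of 5 tumors. It measured 95.3, 103, 82.1, 74.6 and 27.9 CPM there, and 36.2, 45.2, 88.4, 43.2 and 7.0 CPM in tumor cells. In MP the tumor cells were slightly above the endothelial-like cells, so the ranges overlapped. Pericyte-like cells had 9.39, 14.8, 18.3, 18.9 and 3.92 CPM, below the tumor cells of the same tumor each time. The last value came from 1 UMI, with a 95% interval for counting of 0.099 to 21.8 CPM, so the order in PD+MP was not settled. Tumor cells were lower than endothelial-like cells by a log2 difference of -1.27 (SE 0.22, adjusted p = 2.3e-04) and higher than mural cells by 1.37 (SE 0.28, adjusted p = 0.0011). The second call needed the pairing within tumors, since without the replicate block its adjusted p was 0.068.

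Hes1 (chr16:30064384-30067796, plus strand), the most widely used Notch target and also open to other signals, was read in every class. Tumor cells had 524, 487, 411, 559 and 427 CPM. Pericyte-like cells had 243, 167, 294, 269 and 255 CPM, and endothelial-like cells 293, 243, 247, 247 and 259 CPM. All tumor-cell values lay above all values of both vessel classes, which overlapped each other. The log2 difference of tumor cells was 0.67 against mural (SE 0.15, adjusted p = 0.0019) and 0.60 against endothelial-like cells (SE 0.14, adjusted p = 0.0026). Endothelial-like and mural cells differed by 0.07 (SE 0.15, adjusted p = 0.76).

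Hes5 (chr4:154960923-154962371, plus strand), the Hes gene of neural progenitors, was the target found almost only in the tumor class among the classes fitted. Its tumor-cell levels were 14.8, 23.2, 32.3, 32.5 and 4.18 CPM, from 962, 2115, 2406, 2311 and 301 UMIs. Pericyte-like cells gave 0, 1, 4, 2 and 0 UMIs and endothelial-like cells 8, 6, 9, 3 and 0 UMIs. Macrophage-like cells, which should not express this gene, lay between 0.314 and 1.94 CPM, and endothelial-like cells between 1.11 and 2.05 CPM in the 4 tumors with UMIs. In PD+MP the vessel classes were too small for the comparison, because 0 UMIs allowed up to 6.43 CPM in endothelial-like and 11.8 CPM in pericyte-like cells. Over all tumors the log2 difference was 4.07 against mural (SE 0.41, adjusted p = 2.1e-06) and 3.49 against endothelial-like cells (SE 0.31, adjusted p = 3.0e-07).

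The stretch before the Hes5 start is shown because it holds the core letters of the RBPJ site, and Hes5 is a textbook direct Notch target. The sequence is from RefSeq (GRCm38.p6, chr4:154960673-154960922, plus strand, the 250 bases before the start), with the letters TGGGAA or their reverse complement TTCCCA in capitals.
Hes5: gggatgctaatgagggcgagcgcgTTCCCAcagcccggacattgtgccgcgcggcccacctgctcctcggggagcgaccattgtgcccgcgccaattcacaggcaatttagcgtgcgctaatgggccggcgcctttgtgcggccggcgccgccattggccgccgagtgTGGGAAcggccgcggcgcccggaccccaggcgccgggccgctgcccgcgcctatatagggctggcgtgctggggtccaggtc
One match began 226 and the other 82 bases before the start. In RefSeq windows of 300 bases around starts, TGGGAA occurred on either strand in 25.6% of 32851 windows and 2 or more times in 3.79%. The windows available for Notch1, Notch2, Notch3, Dll1, Dll4 and Jag1 held no match, which says only that these letters were not in those windows. A match is a description of letters, and binding was not measured.

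**Figure D2:**
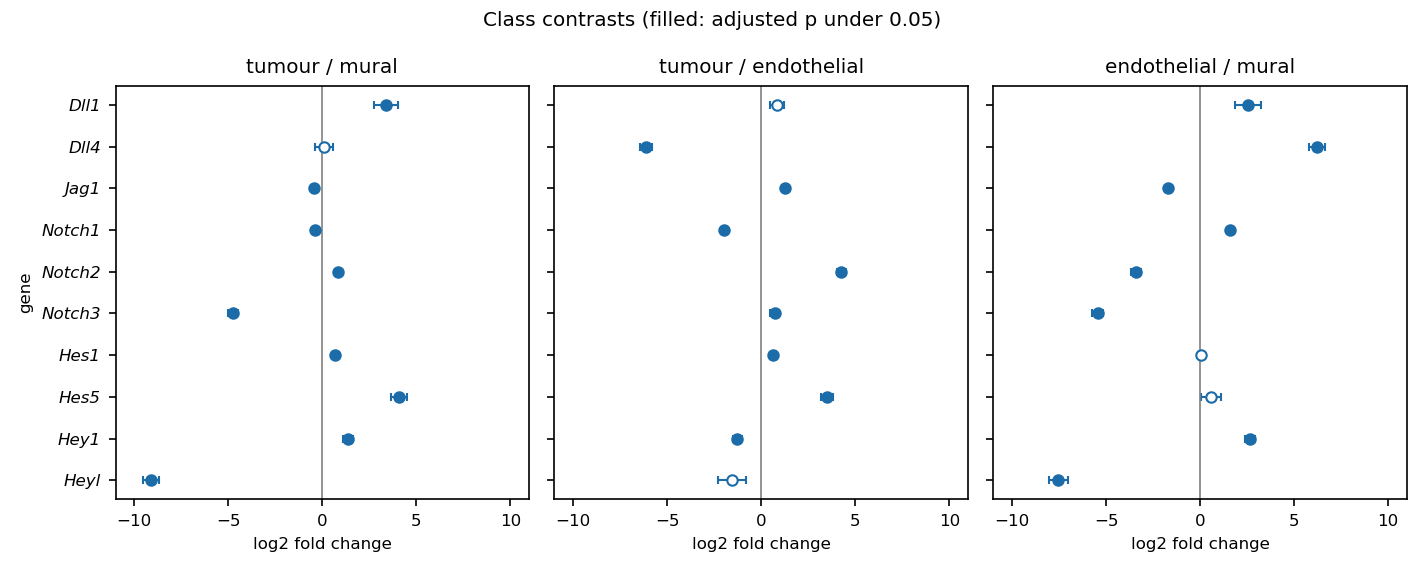
Log2 fold change of each of the 10 genes in the 3 class comparisons (horizontal axis), with bars of 1 SE on each side from the edgeR fit and filled points where the adjusted p was under 0.05. Dll4, Notch3 and Heyl lie farthest below zero where tumor cells are compared with the vessel class that holds them, and Hes5 lies above zero in both tumor comparisons.

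Taking the genes together, 9 of 10 passed in tumor against mural cells, 5 higher and 4 lower, where 42.6% of 11360 genes that had not been used for clustering did. In tumor against endothelial-like cells 8 of 10 passed, 5 higher and 3 lower, beside 55.4% of the same genes. In endothelial-like against mural cells 8 of 10 passed, 4 in each direction, beside 35.3%. Their median log2 differences were 0.38, 0.66 and 0.32, with medians over all genes tested of 0.08, 0.05 and 0.04. These 3 comparisons share sums, so their counts are not independent.

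Among 39 other genes of the pathway, 36 had enough counts. In tumor against mural cells 5 were higher and 9 lower, 14 of 36, a share near the 42.6% of all genes given above. Dtx1, a regulator of Notch turnover, was higher (14.1 ± 7.84 against 0.532 ± 0.736 CPM, log2 4.94), as was Lfng, which adds sugars to Notch (log2 2.47). Hey2 (3.49 ± 2.64 against 36.2 ± 13.3 CPM, log2 -3.74), Dtx4 (log2 -5.10) and Nrarp, a feedback inhibitor (10.9 ± 1.82 against 58.7 ± 11.3 CPM, log2 -2.72), were lower. In tumor against endothelial-like cells 8 were higher and 14 lower, 22 of 36, near the 55.4% of all genes, so neither count sets the list apart. Nrarp again was lower (against 135 ± 24.6 CPM, log2 -3.93), with the receptor Notch4 (log2 -6.85), the ligand Jag2 (log2 -3.36), the glycosyltransferase Mfng (log2 -7.97) and the protease Adam10 (111 ± 9.17 against 422 ± 43.2 CPM, log2 -2.23). The ligand Dll3 (log2 1.85), Dtx1 (log2 3.79) and Rbpj (112 ± 25.4 against 59.7 ± 12.8 CPM, log2 0.63) were higher. Among the target genes, Hes1 and Hes5 were higher and Nrarp was lower in tumor cells than in either vessel class.

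The next question was how the genes varied between tumors. PD+MP had the lowest tumor-cell level of 8 of the 10 genes, where 37% of 20709 genes were lowest in that tumor. The exceptions were Dll1, lowest in BP 2, and Hes1, lowest in MP. The median of the other 4 tumors was 6.65 times the PD+MP level for Hes5, 6.32 times for Hey1 and 5.38 times for Dll4. It was 1.97 times for Notch3 and 1.88 times for Jag1. For Notch1, Hes1 and Dll1 the ratio was at most 1.25. PD+MP is 1 tumor with no second of its label, so these ratios have no replicate check. They include the shallow PD+MP cluster given above, which held Hes5, Hey1 and Dll4 at 3.39, 4.36 and 2.26 CPM. The largest PD+MP cluster held them at 3.38, 5.43 and 1.27 CPM. The others of at least 100 cells held them at 5.52, 8.54 and 0.811 CPM and at 4.89, 32.9 and 2.10 CPM. The part of the shallow cluster in the ratios was not tested.

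Between the 3 tumors with BP in the label and the other 2, none of the 10 genes passed, as 0% of 20709 genes did with edgeR. None of the 10 had an unadjusted p under 0.05, against 1163 genes higher and 819 lower in all. DESeq2 called 547 genes and none of the 10. Dll4 (6.65 ± 0.467 against 3.50 ± 3.24 CPM) and Hes1 (523 ± 35.9 against 419 ± 11.8 CPM) had groups that did not overlap, 2 of 10, while 27.2% of all genes did. Hes5 averaged 23.5 ± 8.87 CPM with BP and 18.3 ± 19.9 CPM without (log2 0.32, SE 0.81), and Hey1 41.5 ± 4.71 and 47.7 ± 57.6 CPM. The group without BP held both the highest Hey1 value, in MP, and the lowest, in PD+MP. Without MP, where PD+MP stood alone and was assumed to vary like the rest, 651 genes were called, with Dll4 (log2 2.35, adjusted p = 0.046) and Hey1 (log2 2.46, adjusted p = 0.036) among them.

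Hes5 was then followed in single tumor cells. Cells were thinned to 3000 UMIs each, so that depth was equal, and shallower cells were left out (31, 94, 41, 224 and 1097). A Hes5 UMI was found in 3.83% of cells in BP 1 (exact binomial 95% interval 3.23 to 4.51), 5.30% in BP 2 (4.78 to 5.87) and 7.2% in MP (6.45 to 8.01). It was found in 6.5% in MP+BP (5.86 to 7.18) and 1.18% in PD+MP (0.910 to 1.51). The intervals cover counting error only. In macrophage-like cells thinned alike the share was 0.120% to 0.449%, below the tumor-cell share of the same tumor each time. Before thinning, the median cell held 4820 to 7154 UMIs in the macrophage-like and 8808 to 12440 UMIs in the tumor class. A Hes5 UMI was found in 10 of 1453 endothelial-like and 2 of 865 pericyte-like cells. Before thinning the tumor-cell shares were 14.4%, 14.2%, 20.3%, 15.4% and 3.83%.

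**Figure D3:**
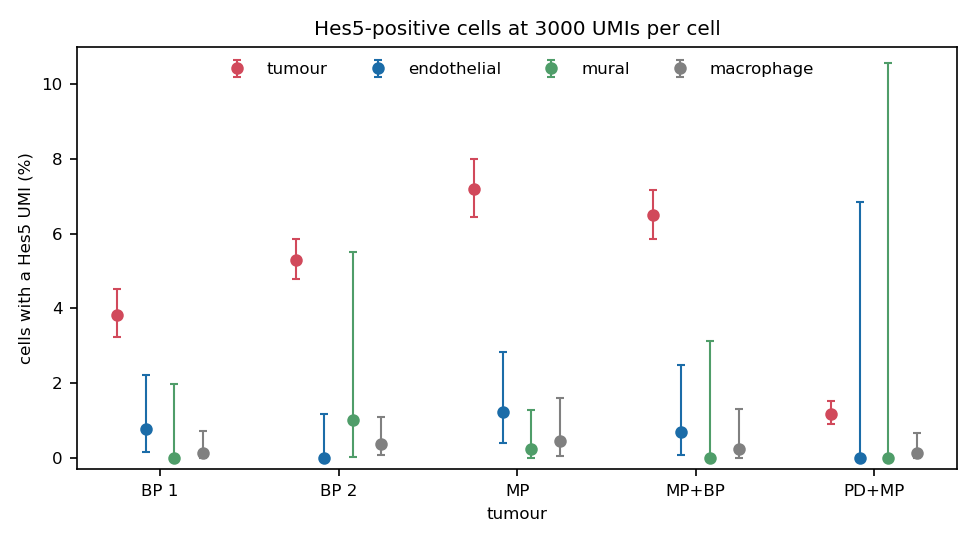
Percent of cells with a Hes5 UMI after thinning each cell to 3000 UMIs (vertical axis) in the 5 tumors, for SyS-like, macrophage-like, endothelial-like and pericyte-like cells, with bars for exact binomial 95% intervals. SyS-like shares run from 1.18% in PD+MP to 7.2% in MP.

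Hes5 UMIs were unevenly spread over cells. The variance of Hes5 counts over thinned tumor cells was 1.82, 2.07, 3.24, 4.60 and 1.08 times the mean. Among genes of like mean, 98.6%, 98.9%, 99.8%, 99.6% and 80.5% had a lower ratio. Single cells held up to 8, 9, 20, 23 and 2 Hes5 UMIs of 3000. Cells with 3 or more Hes5 UMIs were 0.166% to 1.21% of tumor cells in BP 1, BP 2, MP and MP+BP. They held 15.7%, 29.9%, 36.7% and 50.6% of all Hes5 UMIs there, and PD+MP had no such cell. The share also differed between clusters of a tumor. In MP+BP it ran from 1.01% to 13.4%, and in MP from 1.79% to 9.45%. A cluster led by Sst, Egfl6 and Penk had the lowest share in BP 2, MP and MP+BP (1.58%, 1.79% and 1.01%, from 11, 2 and 8 cells with Hes5). In BP 1 that cluster had 4.59% (9 of 196 cells, interval 2.12 to 8.54), above the lowest share there of 2.28%. In PD+MP its share was nominally the highest (2.22%, 4 of 180 cells, interval 0.609 to 5.59). That interval overlapped those of the other PD+MP clusters. The cluster with the highest share in BP 1 and BP 2 (8.60% and 7.64%) was led by Meioc, Ly6h and En1, with the cell cycle genes Cenpf and Aspm among its top 10. The highest in MP (9.45%) was led by Fgf15, Luzp2 and Six3, with the cell cycle gene Cdc20 among its top 10. That cluster had only 5.48% in MP+BP, where the highest (13.4%) was led by Rbfox1, Dpp10 and Ptprz1. Clusters were built on these cells, so the spread is given with no test.

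**Figure D4:**
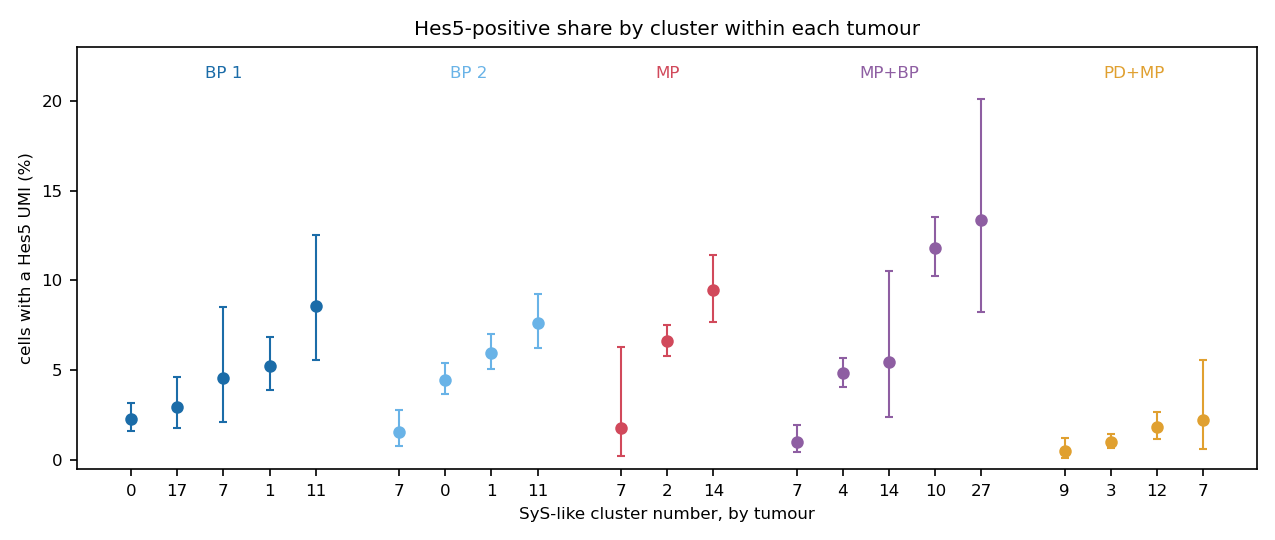
Percent of SyS-like cells with a Hes5 UMI, thinned to 3000 UMIs, in each tumor's clusters (1 point a cluster, grouped by tumor, bars are exact binomial 95% intervals). Points spread from 1.01% to 13.4% in MP+BP and stay at or below 2.22% in PD+MP.

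Whether the other genes moved with Hes5 within a tumor was tested over tumors. Cells with a Hes5 UMI (139, 358, 314, 356 and 63) and those without were summed per tumor, giving 10 sums. Hes1 was at 686, 637, 536, 860 and 841 CPM in cells with and 538, 511, 427, 608 and 438 CPM in cells without. It was higher in all 5 tumors (log2 0.45, SE 0.07, adjusted p = 2.3e-06). Among the alternatives the Hes1 call was lost only in the fit without the tumor as a block. Hey1 was also higher in all 5, at 52.8, 85.7, 108, 63.7 and 10.6 CPM against 34.6, 41.2, 79.3, 41.8 and 6.84 CPM (log2 0.69, SE 0.12, adjusted p = 1.4e-04). The Hey1 call was lost when cells were matched on cluster (adjusted p = 0.056) and without BP 2 (adjusted p = 0.075). Dll4 passed (log2 1.22, SE 0.28, adjusted p = 0.011) on 3, 13, 12, 28 and 0 UMIs, higher in only 3 tumors. It lost the call in 4 of 10 alternatives. These were the fit without MP+BP (log2 0.72, adjusted p = 0.61), cells thinned to 2000 UMIs, cells not thinned and the fit without the block. Of 8 of the 10 genes with enough counts, these 3 were called, where 0.89% of 14159 genes were. Notch1 lay higher in cells with Hes5 in 5 of 5 tumors but did not pass (log2 0.22, SE 0.10, adjusted p = 0.50). Notch2, Notch3, Dll1 and Jag1 did not pass.

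The levels also followed the number of Hes5 UMIs. With 0, 1 and 2 or more Hes5 UMIs, Hes1 was at 538, 670 and 768 CPM in BP 1, at 511, 594 and 792 in BP 2, at 427, 519 and 595 in MP and at 608, 808 and 963 in MP+BP. PD+MP had only 3 cells with 2 or more. Hey1 rose in the same order in those 4 tumors, from 34.6 to 72.5 CPM in BP 1 and from 79.3 to 129 CPM in MP. The top values rest on few Hey1 UMIs, 5 in 23 cells of BP 1 and 27 in 70 cells of MP. These values describe the same cells as the test above.

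**Figure D5:**
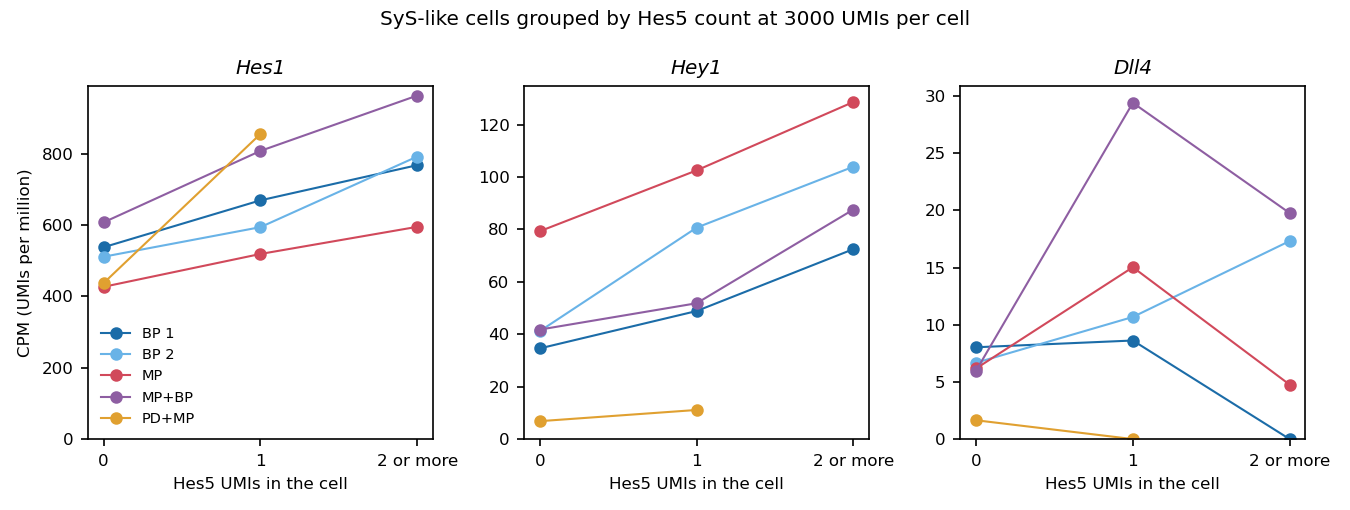
Hes1, Hey1 and Dll4 level in CPM (vertical axes) in SyS-like cells with 0, 1 and 2 or more Hes5 UMIs (horizontal axis), 1 line a tumor. Hes1 and Hey1 lines rise with the Hes5 count in BP 1, BP 2, MP and MP+BP, Dll4 lines have no common order, and PD+MP is shown for 0 and 1 UMI.

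Other genes differed between the same cells, and of all genes 56 were higher and 70 lower. Without BP 2, MP+BP or PD+MP the called genes numbered 50, 83 and 76, and the fit without the tumor as a block called 0. Of those called outside the lists, 37 were higher and 33 lower in all 5 tumors. The highest were Neurod2, a neuronal transcription factor (log2 1.72), Pantr2 (1.70), the histone genes Hist1h2ap (1.33) and Hist1h2ae (0.86), and Otud1 (1.06). The lowest were Mir155hg (-2.94), the chemokine Cxcl2 (-2.64), Egfl6 (-2.18), Pcdh9 (-2.09) and Hoxb5os (-1.73). None of these 10 could keep its call in every alternative, since the fit without the block called 0 genes. A list of 10 cell cycle genes, made after values were seen, stood at 391, 791, 916, 547 and 1836 CPM with Hes5 and 297, 494, 724, 483 and 1086 CPM without, and its part in the result was not tested. Of these 10 genes, 6 were called higher with Hes5 and 0 lower, where 0.89% of all genes were called either way. Their median log2 difference was 0.45, against -0.013 over all genes tested. Mki67, of that list, showed no common order over the Hes5 counts. In BP 1, BP 2, MP and MP+BP it stood at 37.8, 54.7, 64.6 and 36.4 CPM with 0 Hes5 UMIs. With 1 it stood at 37.4, 106, 94.3 and 33.6 CPM. With 2 or more it stood at 43.5, 8.66, 42.9 and 19.8 CPM, from 3, 2, 9 and 7 Mki67 UMIs. In PD+MP Mki67 stood at 116 CPM with 0 and 194 CPM with 1 Hes5 UMI, the latter from 35 Mki67 UMIs. Fibroblast markers, 11 genes, stood at 348, 364, 233, 761 and 318 CPM with and 424, 824, 277, 1287 and 243 CPM without, and were lower with Hes5 in 4 of 5 tumors. Endothelial markers, 10 genes, stood at 197, 98.7, 113, 201 and 132 CPM with and 256, 149, 148, 250 and 128 CPM without, lower in 4 of 5. Macrophage markers, 10 genes, stood at 38.4, 46.6, 22.3, 24.3 and 10.6 CPM with and 59.7, 42.6, 29.2, 27.2 and 45.7 CPM without, also lower in 4 of 5. Pericyte markers, 12 genes, were lower in 3 of 5. The 15 synovial sarcoma markers stood at 4321, 5955, 4252, 4949 and 4344 CPM with Hes5. They stood at 4240, 5097, 3969, 4255 and 4544 CPM without, and so were higher with Hes5 except in PD+MP. The part of these markers in the result was not tested. None of 35 pathway genes passed.

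Dll4 was last asked for in sprouting endothelium, where tip cells are its textbook site. Endothelial-like cells with a UMI of the tip markers Esm1, Apln or Angpt2 (302, 187, 315, 146 and 42) were set against the others (88, 126, 94, 143 and 10). None of the 5 genes with enough counts passed, where 0.764% of 5889 genes did. Dll4 differed by 0.05 (adjusted p = 0.96), Notch1 by -0.15, Jag1 by -0.46, Hes1 by -0.03 and Hey1 by 0.01 on the log2 scale. With Esm1 alone as the marker, Dll4 (log2 0.51, adjusted p = 0.0017) and Hey1 (log2 0.92, adjusted p = 3.3e-05) were called, so the answer depended on the marker used.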

How the data were processed

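Cells of 5 tumors were captured with a droplet kit that tags transcript ends, 1 library a tumor. Per the file headers, the authors made the deposited UMI counts with Cell Ranger 7.2.0 (filtered matrices, mm10 per the labels); strand and intron settings are not given in the sources used here. Cells with under 750 genes or over 25% mitochondrial counts were removed, and Scrublet (scanpy 1.11.5) removed 2957 doublets. Clusters came from 3000 features without the 10 genes (30 components, 20 neighbors, Leiden resolution 1, leidenalg 0.10.2) and were named from at least 3 fixed markers; leaving out clusters with markers of 2 classes was decided after marker counts were seen. Sums of counts, 1 for each tumor in each class, entered edgeR 4.0.16's quasi-likelihood test with TMM scaling, filterByExpr and tumor as block, at an adjusted p under 0.05. Both classes come from the same tumor, which is the pairing; the numbers otherwise pair nothing. The label comparison had no covariate. Alternatives included DESeq2 1.42.0, other scaling, filters, thinning and leaving out each tumor. Class sums of tumor cells held 65177942 to 91024267 UMIs. On simulated counts of each comparison, 2-fold and 4-fold changes were recovered at 59.6% and 100% for tumor against mural (13354 genes), 79.8% and 100% for tumor against endothelial-like (13354), 52.6% and 96.7% for endothelial-like against mural (13360), 24.5% and 97.0% for the label (20636), 45.5% and 91.9% for the Hes5 split (14328) and 59.8% and 98.8% for the tip split (5803). Levels are ± SD over tumors. Named were the 10 genes, called genes of the pathway list, and for the Hes5 split the 5 highest and 5 lowest called genes outside the lists that moved alike in every tumor. The genes and lists were chosen with earlier results of these data known. Features matched GENCODE M21 for 32235 of 32286, and 7 of the 10 genes had a RefSeq promoter window. A list of proneural genes was also fixed and is not reported here.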

Additional observations from a re-analysis of the deposited data

Results flagged for a closer look

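Dll4 in the tumor cells of PD+MP lay at 1.21 CPM (87 UMIs) while the nearest of the other 4 tumors was at 5.79 CPM. Its gap took 0.796 of the range, above Dixon's 95% value of 0.710 for 5 samples. Jag1 in the tumor cells of PD+MP lay at 85.8 CPM with the nearest other tumor at 146 CPM, a gap of 0.768 of the range. Of 30 groups of 5 levels, 10 genes in 3 classes, these 2 passed that value, a share near the about 1 in 20 that chance marks. Both come from the same tumor and class, so they are not independent. PD+MP was also the tumor with the most SyS-like cells under 3000 UMIs (1097), whose part in both values was not tested.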

How the results depend on the processing

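Small classes and few Hes5 cells limited the depth: a gene without UMIs in PD+MP mural cells could still lie at up to 11.8 CPM, and without thinning deeper cells hold Hes5 more often. With sums thinned to equal depth, 2159 genes were called in tumor against mural cells (5 of the 10 genes), 2602 in tumor against endothelial-like and 1961 in endothelial-like against mural cells; fewer genes, 5389, were tested. Total-count scaling moved the median of all genes to 0.40 and 0.36 in the 2 tumor comparisons, and the calls there split 5564 higher and 2145 lower, and 5928 higher and 2861 lower, against 3306 and 2999, and 4052 and 3872, with TMM. The causes of the changes below were not tested. Dll4 in tumor against mural cells turned to -0.22 when thinned and ran from -0.41 to 0.63 when 1 tumor was left out. Hes1 in endothelial-like against mural cells turned to -0.044 when thinned and ran from -0.12 to 0.18. Notch3 in tumor against endothelial-like cells turned to -0.90 at Leiden resolution 0.5 and -0.89 with the mixed cluster kept, an alternative chosen after seeing the data, as was the fit without the block for both cell splits. These Notch3 alternatives are not separate checks, since resolution 0.5 gave no mixed endothelial and pericyte cluster.

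For the label, DESeq2 called 547 genes, and leaving out 1 tumor gave 0 to 651 genes and 0 to 2 of the 10, the highest without MP. Setting the BP tumors against the other 3 turned Notch2 to -0.17, Notch3 to -0.032 and Hes5 to -0.24. Leaving out 1 tumor, Notch2 ran from -0.19 to 0.45, Notch3 from -0.38 to 0.81, Jag1 from -0.089 to 0.76, Hes5 from -0.51 to 2.38 and Hey1 from -1.13 to 2.46. None of these directions was called in the comparison as reported.

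For cells with a Hes5 UMI (126 genes called), DESeq2 gave 16 genes, no low-count filter 223, unthinned cells 1880, matching on cluster 27 (1 of the 10) and doublets kept 196. With no replicate block 0 genes and 0 of the 10 were called, so these calls rest on the pairing within tumors; leaving out 1 tumor gave 50 (without BP 2) to 128 genes, with 83 without MP+BP and 76 without PD+MP. Notch2 turned to -0.053 without the filter and -0.00092 unthinned and ran from -0.017 to 0.065; Notch3 turned to 0.091 unthinned and 0.033 with doublets. For tip markers (45 genes), DESeq2 gave 15, unthinned cells 551, Esm1 alone 176 (2 of the 10), and no replicate block 0; leaving out 1 tumor gave 23 (without MP+BP) to 44, with 27 without BP 1 and 29 without MP. There, Notch1 turned to 0.064 unthinned and 0.27 with Esm1 alone, and Dll4 to -0.057 unthinned, with a range of -0.073 to 0.14. Hes1 turned to 0.055 without the filter, 0.11 at 2000 UMIs and 0.015 without the block, with a range of -0.13 to 0.11. Hey1 turned to -0.029 with DESeq2, -0.20 unthinned, -0.17 at 2000 UMIs, -0.11 with doublets and -0.050 without the block, with a range of -0.33 to 0.29. At 2000 UMIs the Hes5 shares were 2.85%, 3.75%, 5.35%, 4.79% and 0.696%, unthinned 14.4%, 14.2%, 20.3%, 15.4% and 3.83%, and MP gave 6.12% with at least 1500 genes a cell. In the class comparisons the fit without the block changed the call of Hey1 in tumor against mural cells, as given with that value, and of Notch1 and Jag1.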

Other observations

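Across 21 units, each a cluster of SyS-like cells within 1 tumor, the genes whose levels ran most like Hes5 among 11877 genes were Farsb (Pearson's r 0.89), Psmc2 (0.86), Cyp51 (0.84), Nifk (0.83) and Sms (0.83). The units share libraries and depth, so these are descriptions with no test. Dll4 came fifteenth in rank (0.79), Notch1 had 0.56, Hey1 0.22 and Hes1 -0.04. Hes1 and Hey1, the genes that were higher in cells with a Hes5 UMI within each tumor, were thus not those whose cluster levels ran with Hes5. Most unlike Hes5 were Pgghg (-0.91) and Tjp1, a tight junction gene (-0.89).

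Of the other pathway genes, Hes6, a Hes family member that counters Hes1, averaged 14.0 ± 3.54 CPM in tumor cells of the 3 tumors with BP and 32.0 ± 12.5 CPM in the other 2, and Dtx1 averaged 19.1 ± 4.65 and 6.5 ± 3.37 CPM. Neither passed (edgeR's quasi-likelihood test, adjusted p = 0.48 for both), and both were named after their values were seen.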
